A study of Arabidopsis thaliana with 36 samples.

Results

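The roots described here were those of the *gai* line of *Arabidopsis thaliana*, harvested 8 h after 5-d-old seedlings had been moved to 140 mM NaCl or to mock medium. They account for 6 of the 36 libraries of the series, 3 biological replicates on salt and 3 under mock conditions, and were chosen by the genotype, treatment and time that the sample labels give. The *gai* line is in the Landsberg *erecta* (L*er*) background and carries a dominant allele of *GIBBERELLIC ACID INSENSITIVE* (*GAI*), so that its GAI protein is stabilised. At the same time point the series holds 3 libraries per treatment of L*er* (wild-type), of *ga4*, which is defective in a late step of gibberellin (GA) synthesis, and of *della5x*, which in the same background carries mutations in all 5 DELLA genes, *GAI* (*gai-t6*), *RGA* (*rga-t2*), *RGL1* (*rgl1-1*), *RGL2* (*rgl2-1*) and *RGL3* (*rgl3-4*). Each library came from pooled seedlings, of which the lower root was taken.

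GA is a diterpenoid hormone that promotes growth. When GA binds its receptors of the GID1 family, these bind the DELLA proteins, a small family of nuclear regulators of transcription, and the F-box protein SLY1 marks the DELLAs for degradation. The *gai* allele lacks a short in-frame stretch near the start of the protein that includes the DELLA motif, which the receptor needs, so that GAI stays in place when GA is present. Salt stress is known to raise abscisic acid (ABA) in roots, to change ion and water transport, and to slow growth for some hours before growth resumes.

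The start of the *GAI* coding sequence is shown because it holds the codons of the motif that names the family. *GAI* (AT1G14920) lies on the forward strand of chromosome 1, from 5148982 to 5151415 in TAIR10.1, with its coding sequence in 1 segment from 5149414 to 5151015. The stretch below is part of that exon, chr1:5149459-5149545, with the 5 codons of the motif (5149495 to 5149509) in capitals. It is the RefSeq sequence of the reference accession and was not read from the *gai* libraries, and the count of a gene that lacks so short a stretch does not test the genotype.
*GAI*: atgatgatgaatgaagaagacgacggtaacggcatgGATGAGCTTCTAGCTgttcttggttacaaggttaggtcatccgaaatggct

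The *gai* libraries held 17375311 to 19550290 counts each (17085674 to 22582443 over the 24 libraries of 8 h). Between replicates of a group the variance was 4.53 to 25.2 times that of counting error alone, so that no pair held the same library. Their log2 CPM (counts scaled to 1000000 per library, normalised by TMM) correlated with *r* of 0.9687 to 0.9872 across genes, against 0.9153 to 0.933 between mock and salt libraries. One library stood apart, the salt library 3. It lay at -53.03 on the second principal component of the 6 libraries (13.3% of the variance), where the other salt libraries lay at 30.21 and 26.55, and 1020 genes were over 1 log2 unit higher in it and 503 over 1 log2 unit lower than the mean of the other salt libraries. All 12 root marker genes were detected in each *gai* library, with summed levels of 14750 to 16420 CPM under mock conditions and 11560 to 13710 CPM on salt. The 12 shoot markers of photosynthesis summed to 273.9 to 314.2 CPM under mock conditions and to 202.2, 218.0 and 112.5 CPM on salt, with 2 to 4 of them at 0 in a library.

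After 8 h on salt, 2166 genes were upregulated in *gai* roots (10.6% of the 20355 genes tested) and 1700 were downregulated (8.35%), called where the adjusted *P* was under 0.05 and the change exceeded 0.5 log2 units either way. The fold change was above 2 log2 units for 556 of the genes that rose and below -2 for 248 of those that fell, and above 4 for 215 and below -4 for 41. Without salt library 3 the counts were 1855 and 1632, all 3866 genes kept their direction and 3158 kept their call. In the same fit L*er* had 2616 genes up (12.9%) and 2127 down (10.4%). Because RNA was taken from whole root segments, fewer cells of a type and less RNA per cell cannot be told apart in any of the values below.

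Values are given below for libraries 1, 2 and 3 of each group, and the error of a log2 fold change is its standard error (SE), back-calculated from the test statistic. Among the 15 genes with the smallest *P* that rose, *BGLU24*, which encodes a β-glucosidase, was at 0.261, 0.0571 and 0.252 CPM (mock) and 224, 173 and 175 CPM (salt), a log2 fold change of 9.89 ± 0.34 (SE), adjusted *P* = 1.13e-14. *SAG29*, also named *SWEET15*, encodes a sugar carrier of the SWEET family and was at 0.730, 0.571 and 0.151 CPM (mock) and 168, 153 and 237 CPM (salt) (log2 fold change 8.58 ± 0.37, adjusted *P* = 7.29e-13). *MIOX1*, for the inositol oxygenase that opens the ring of *myo*-inositol, was at 2.03, 2.34 and 2.52 CPM (mock) and 95.6, 81.4 and 58.7 CPM (salt) (log2 fold change 5.09 ± 0.24, adjusted *P* = 3.73e-12). In each of these 3 genes the lowest salt library lay far above the highest mock library. *SUS3*, for a sucrose synthase, was at 35.6, 36.4 and 29.8 CPM (mock) and 224, 220.0 and 249 CPM (salt) (log2 fold change 2.77 ± 0.13, adjusted *P* = 3.73e-12), and *ADC2*, for the arginine decarboxylase that starts the synthesis of polyamines, was at 278, 227 and 213 CPM (mock) and 1119, 1109 and 1295 CPM (salt) (log2 fold change 2.29 ± 0.13, adjusted *P* = 3.07e-11). The other 10 of the 15 rose by 1.59 (AT2G35840, a sucrose phosphatase) to 7.62 (*KIN1*), and included the protein phosphatase genes *ABI2* and *HAI3*, *HVA22D*, *SRC2*, the transporter genes AT1G59740 (NPF4.3) and AT5G65990, the glycosyl hydrolase gene AT5G55180 and AT5G28520, for a mannose-binding lectin. No mock library overlapped a salt library in any of the 15. That follows from picking the genes by smallest *P* in these same libraries and is given as a description only.

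Several genes that were silent under mock conditions were among the largest changes. *HAK5*, the high-affinity potassium carrier of the root surface, had no count in the 3 mock libraries and stood at 27.8, 28.2 and 60.0 CPM on salt, at least 728-fold higher when the mock group is set to 3 counts over its libraries. By the same floor AT5G50360, for a protein with a von Willebrand factor A domain, was at least 439-fold higher, *RD20*, for a caleosin of lipid droplets, at least 139-fold, AT5G52390 at least 135-fold, *MYB121* at least 105-fold, and AT3G03341, annotated as cold-regulated, at least 88.1-fold. *CWINV5*, for a cell wall invertase that splits sucrose, was at 0, 0 and 0.151 CPM (mock) and 23.502, 27.6 and 63.3 CPM (salt). Salt library 3 was the highest of the salt libraries for *HAK5*, AT5G50360, AT5G52390, AT3G03341 and *CWINV5*.

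Among the genes that fell, those with the smallest *P* included cell wall enzymes and secreted peptides. As above, the separation of their mock and salt libraries follows from that choice. *XTH16*, for a xyloglucan endotransglucosylase/hydrolase that cuts and rejoins wall xyloglucan, was at 62.5, 71.1 and 70.2 CPM (mock) and 4.84, 4.68 and 5.62 CPM (salt) (log2 fold change -3.75 ± 0.21, adjusted *P* = 3.22e-11). *GASA1*, for a small cysteine-rich peptide of a family known for its regulation by GA, was at 659, 794 and 689 CPM (mock) and 147, 164 and 122 CPM (salt) (log2 fold change -2.31 ± 0.13, adjusted *P* = 3.72e-11). *RALF1*, for a peptide that restrains cell elongation and acidification of the wall, was at 116, 143 and 136 CPM (mock) and 45.5, 44.7 and 55.4 CPM (salt) (log2 fold change -1.44 ± 0.11, adjusted *P* = 1.67e-09). All 3 mock libraries lay above all 3 salt libraries for each of the 15 genes of smallest *P*, which also included *XTH15*, *XTH21*, the pectin methylesterase gene *PMEPCRA*, the subtilase gene *SBT4.12*, *MIPS3* for inositol phosphate synthesis, *GLL22*, *MSRB6*, the aquaporin gene *PIP1;5*, AT1G62480, AT1G17300, the ribonuclease gene AT1G14210 and AT3G25190 (VTL5, a vacuolar iron transporter-like protein). The last of these was at 283, 402 and 324 CPM (mock) and 14.9, 19.8 and 17.398 CPM (salt) (log2 fold change -4.27 ± 0.34, adjusted *P* = 4.23e-09).

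**Figure D1:**
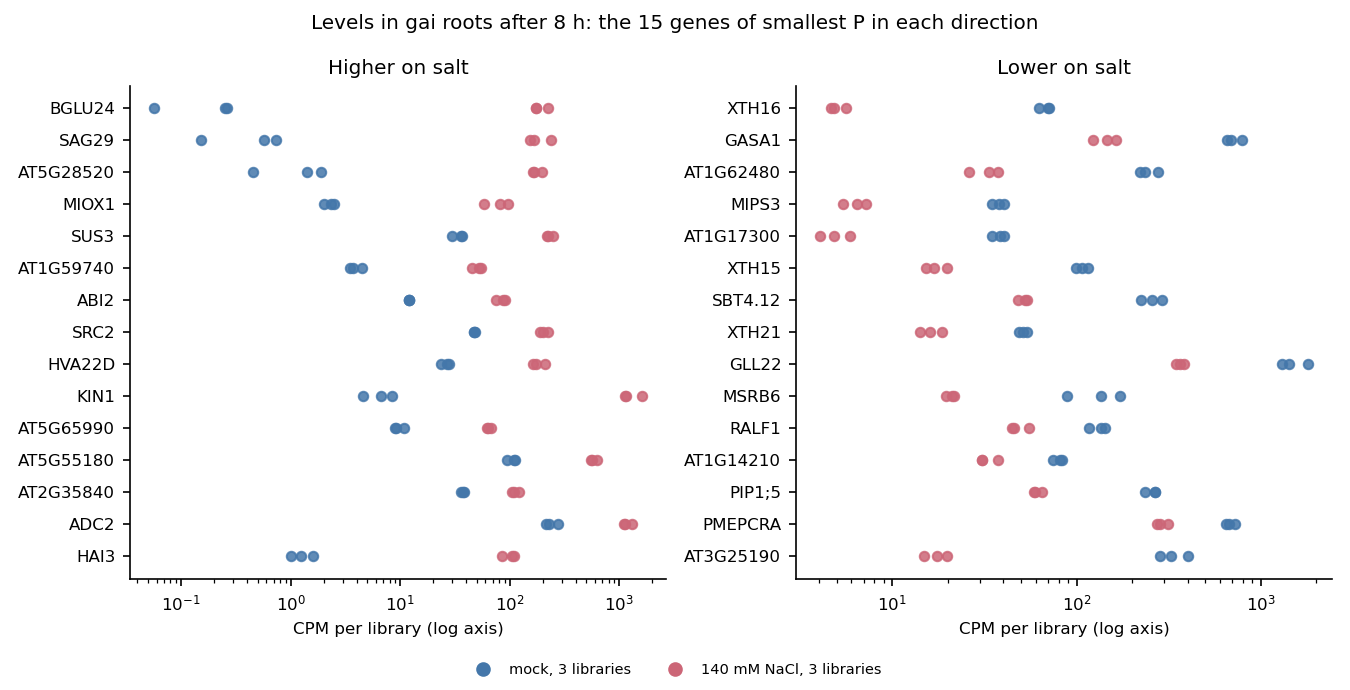
CPM of each of the 6 *gai* libraries after 8 h (log axis), mock in blue and 140 mM NaCl in red, for the 15 genes of smallest *P* that rose (left) and that fell (right). The mock and the salt libraries do not overlap for any of the 30 genes, which follows from picking them by smallest *P* in these libraries. *BGLU24* lies below 0.3 CPM under mock conditions and above 170 CPM on salt, and *XTH16* lies above 60 CPM and below 6 CPM.

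The genes of GA metabolism and perception moved little next to these. Of 9 genes of GA synthesis tested, 1 rose and none fell (1 fell without mock library 2): *GA2*, for *ent*-kaurene synthase, had a log2 fold change of 0.59 ± 0.15 (SE), adjusted *P* = 0.00508, a call that was lost without mock library 2 or salt library 2. *GA3OX1*, the gene that is mutated in *ga4*, was at 17.5, 17.2 and 15.7 CPM (mock) and 12.8, 14.5 and 13.97 CPM (salt), a log2 fold change of -0.28 ± 0.29 (SE), adjusted *P* = 0.529, and *GA20OX3*, with the lowest value of the list, had a log2 fold change of -1.40 ± 0.61 (adjusted *P* = 0.106). Of 5 genes of GA 2-oxidases, which inactivate GA, 2 rose and none fell (1 fell without salt library 1). *GA2OX6* was at 24.9, 26.3 and 18.3 CPM (mock) and 44.4, 44.6 and 91.8 CPM (salt) (log2 fold change 1.38 ± 0.28, adjusted *P* = 8.08e-04). *GA2OX2* was at 0.209, 2.40003 and 1.16 CPM (mock) and 6.34, 5.95 and 5.51 CPM (salt) (log2 fold change 2.25 ± 0.60, adjusted *P* = 0.00769). *GA2OX6* was highest in salt library 3, and both genes kept their call with each *gai* library left out. The median of the 5 was 0.51, but 0.00086 without salt library 3 and 0.83 without salt library 2, against 0.0035 over all genes tested.

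Transcripts of the DELLA genes did not pass the test in *gai*. *GAI* was at 17.5, 21.4 and 23.9 CPM (mock) and 17.7, 15.2 and 20.02 CPM (salt), with overlapping groups and a log2 fold change of -0.25 ± 0.16 (SE), adjusted *P* = 0.291, and *RGA*, the other DELLA gene with high counts, at 107.4, 100.6 and 97.9 CPM (mock) and 92.6, 92.6 and 87.1 CPM (salt) (log2 fold change -0.17 ± 0.10, adjusted *P* = 0.247). *RGL1*, *RGL2* and *RGL3* had log2 fold changes of -0.11, 0.43 and -0.38. Of the 13 genes of GA perception and DELLA signalling tested, 2 rose. One was the receptor gene *GID1B*, at 30.8, 28.5 and 27.2 CPM (mock) and 44.3, 48.1 and 52.2 CPM (salt) (log2 fold change 0.74 ± 0.094, adjusted *P* = 3.01e-06), while the receptor genes *GID1A* and *GID1C* had values of -0.043 and 0.14. The other was *SEC*, for an O-GlcNAc transferase that modifies DELLA proteins, with a log2 fold change of 0.60 ± 0.14, whose call was lost without mock library 2. The GASA peptide genes parted in both directions: besides *GASA1*, *GASA14* fell (log2 fold change of -2.21 ± 0.56), and *GASA4*, *GASA5* and *GASA3* rose by 0.98 ± 0.19, 4.32 ± 0.65 and 7.90 ± 0.65. *GASA4* was at 284, 285 and 257 CPM (mock) and 643, 592 and 393 CPM (salt).

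Over 38 lists of genes grouped by function, the share of tested members called ran from none of 9 flavonoid genes to all 9 clade A protein phosphatase genes, all 8 heat shock protein genes and all 5 GASA genes, beside a background of 10.6% up and 8.35% down. The shares cover tested members only: 15 heat shock protein genes and 11 GASA genes were listed. In the text each list is given by its counts and its median log2 fold change, and the median over all genes tested was 0.0035.

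**Figure D2:**
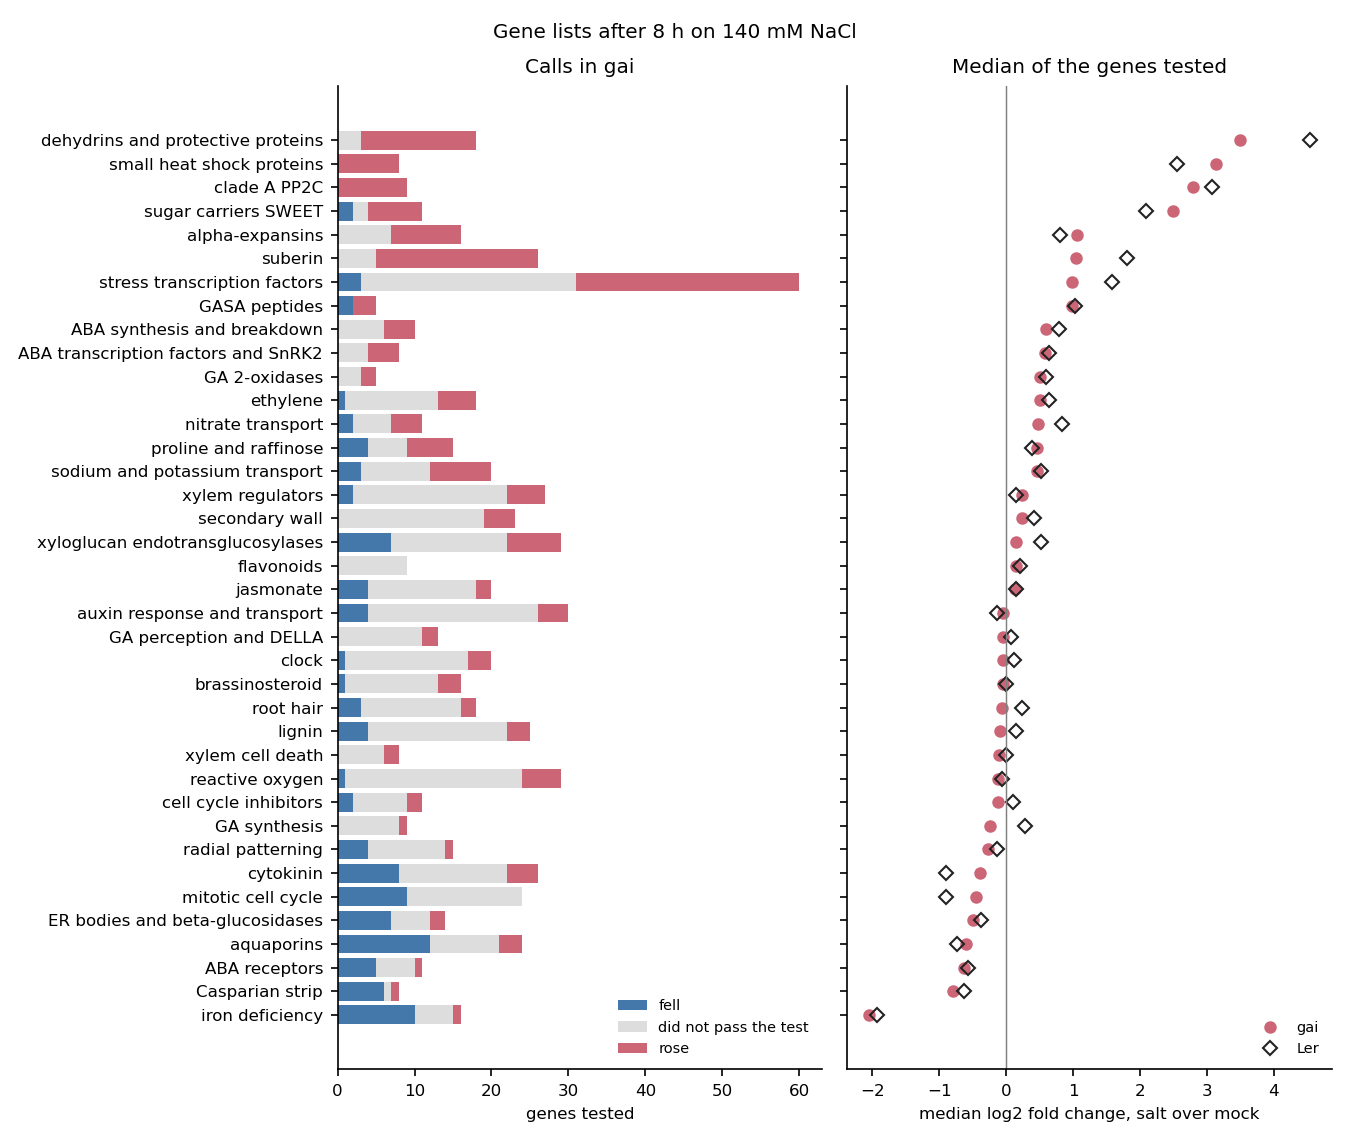
Left, number of genes tested in each list that rose (red), fell (blue) or did not pass the test (grey) in *gai* after 8 h on 140 mM NaCl; right, median log2 fold change of the genes tested in each list in *gai* (filled circle) and in L*er* (open diamond). Dehydrins and protective proteins have the highest plotted median in both genotypes (3.49 and 4.54; at 3 in *gai* with silent mock groups at their bound, below the 3.14 of heat shock protein genes) and iron deficiency genes the lowest (-2.04 and -1.93), and the median of the suberin genes is 1.05 in *gai* and 1.81 in L*er*.

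ABA binds receptors of the PYR/PYL family, which then hold back the clade A protein phosphatases 2C (PP2C), so that SnRK2 kinases can act on transcription factors. All 9 PP2C genes tested rose in *gai* (median 2.79), and each kept its call with every *gai* library left out. *HAI2* was at 0, 0.114 and 0.201 CPM (mock) and 33.6, 22.5 and 31.7 CPM (salt) (log2 fold change 8.02 ± 0.49, adjusted *P* = 9.81e-11). *HAI3* was at 1.62, 1.26 and 1.01 CPM (mock) and 105, 85.3 and 109 CPM (salt) (log2 fold change 6.26 ± 0.37, adjusted *P* = 6.36e-11). *HAI1* was at 4.33, 7.37 and 3.93 CPM (mock) and 94.9, 88.4 and 114 CPM (salt) (log2 fold change 4.26 ± 0.26, adjusted *P* = 1.10e-10). For each of the 3 the highest mock library lay far below the lowest salt library. *ABI2*, one of the genes first found through ABA-insensitive mutants, was at 12.2, 12.1 and 12.1 CPM (mock) and 86.2, 75.3 and 89.7 CPM (salt) (log2 fold change 2.79 ± 0.14, adjusted *P* = 4.48e-12). *ABI1* was at 125, 127 and 91.4 CPM (mock) and 374, 379 and 408 CPM (salt) (log2 fold change 1.76 ± 0.12, adjusted *P* = 3.59e-10). *PP2CA*, *HAB1* and *HAB2*, which had signal under mock conditions, rose by 1.83 ± 0.16, 1.43 ± 0.13 and 0.79 ± 0.12, and *AHG1* by 2.93 ± 0.40.

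The receptors moved the other way. Of 11 PYR/PYL genes tested, 5 fell and kept their call with each library left out, and 1 rose. *PYL6* was at 46.9, 41.4 and 51.4 CPM (mock) and 1.73, 1.27 and 2.94 CPM (salt) (log2 fold change -4.55 ± 0.36, adjusted *P* = 4.40e-09). *PYL4* was at 85.5, 80.1 and 93.2 CPM (mock) and 21.5, 20.9 and 27.7 CPM (salt) (log2 fold change -1.88 ± 0.15, adjusted *P* = 6.57e-09). *PYL5* was at 48.1, 48.7 and 46.6 CPM (mock) and 16.8, 13.02 and 18.7 CPM (salt) (log2 fold change -1.57 ± 0.22, adjusted *P* = 9.36e-06). *PYR1* and *PYL1* fell by less, with log2 fold changes of -0.96 ± 0.091 and -0.95 ± 0.13. *PYL7* was the one that rose (0.86 ± 0.27), from 2.97 to 3.66 CPM to 4.93 to 7.601 CPM, and its call was lost without mock library 3 or salt library 3. *PYL8*, the receptor gene with a known role in roots, was at 93.8, 95.1 and 94.2 CPM (mock) and 64.2, 71.8 and 67.9 CPM (salt), with a log2 fold change of -0.47 ± 0.096 (SE), adjusted *P* = 7.27e-04 that stayed inside the fold change limit.

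Of the 10 genes of ABA synthesis and breakdown tested, 4 rose and none fell, on both sides of the pathway. *NCED3*, for the dioxygenase that limits ABA synthesis under stress, was at 18.16, 13.2 and 10.6 CPM (mock) and 85.4, 79.4 and 89.8 CPM (salt) (log2 fold change 2.602 ± 0.24, adjusted *P* = 3.40e-08). *AAO3*, for the last oxidation step, was at 30.8, 23.9 and 27.6 CPM (mock) and 46.7, 45.2 and 48.4 CPM (salt) (log2 fold change 0.77 ± 0.096, adjusted *P* = 2.48e-06). *CYP707A1*, for an ABA 8′-hydroxylase that breaks ABA down, was at 37.3, 26.9 and 22.1 CPM (mock) and 185, 179.6 and 179.7 CPM (salt) (log2 fold change 2.66 ± 0.18, adjusted *P* = 5.67e-10). Each of these had a mock group and a salt group that did not overlap. Among 8 genes of ABA transcription factors and SnRK2 kinases, *OST1*, for the kinase SnRK2.6, rose by 1.36 ± 0.11, *ABF2* by 1.104 ± 0.11, *ABF1* by 0.67 ± 0.15 and *ABI5* by 1.05 ± 0.36, the last with a call that was lost when any of 4 libraries was left out. *ABF4* was at 56.0, 57.5 and 55.5 CPM (mock) and 54.0, 60.2 and 64.5 CPM (salt) and did not pass (log2 fold change 0.081 ± 0.11, adjusted *P* = 0.631).

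Dehydrins and related hydrophilic proteins, which protect membranes and proteins when water is lost, rose in 15 of 18 cases and none fell. The fitted median of 3.49 was the highest of all lists, but with genes of a silent mock group set to their bound it was 3, below the 3.14 of the heat shock protein genes. *KIN1* was at 4.54, 8.40 and 6.64 CPM (mock) and 1141, 1116 and 1596 CPM (salt) (log2 fold change 7.62 ± 0.40, adjusted *P* = 9.51e-12). A near-identical copy, *COR6.6* (*KIN2*), lies next to it, so that reads could have been split between the copies, and *COR6.6* rose by 2.36 ± 0.25. *RAB18*, the dehydrin gene first found through its response to ABA, was at 0.104, 1.60 and 0.101 CPM (mock) and 49.7, 51.4 and 64.02 CPM (salt) (log2 fold change 6.57 ± 0.57, adjusted *P* = 1.49e-08). *RD29B*, also known to respond to ABA, was at 10.4, 13.1 and 6.14 CPM (mock) and 228, 227 and 483 CPM (salt) (log2 fold change 4.99 ± 0.46, adjusted *P* = 4.01e-08). *RD29A* was at 129.7, 133 and 88.7 CPM (mock) and 1537, 1462 and 2102 CPM (salt) (log2 fold change 3.86 ± 0.25, adjusted *P* = 2.03e-10). *ERD10* was at 306, 378 and 319.8 CPM (mock) and 1479, 1343 and 1845 CPM (salt) (log2 fold change 2.22 ± 0.14, adjusted *P* = 1.49e-10).

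Members of that list differed widely in their mock level. *COR15A*, for a protein that stabilises chloroplast membranes in the cold, had no count under mock conditions and stood at 5.41, 3.87 and 34.7 CPM on salt, at least 276-fold higher, and its neighbour *COR15B* at 1.32, 0.509 and 6.37 CPM, at least 51.5-fold higher. Salt library 3 was the highest by far for both, and without it the bounds were 87.4 and 17.3. *COR47* had signal under mock conditions and rose by 0.72 ± 0.12 only, and *ERD14* was at 773, 959.6 and 649 CPM (mock) and 889, 915 and 1049 CPM (salt), with overlapping groups (log2 fold change 0.26 ± 0.16, adjusted *P* = 0.242). *LEA7* was at 18.8, 17.7 and 6.49 CPM (mock) and 366, 369 and 487 CPM (salt) (log2 fold change 4.84 ± 0.51, adjusted *P* = 2.47e-07).

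The promoters of 4 genes that rose are shown because they hold the core of the ABA-responsive element (ABRE), the letters ACGTG read on either strand, which bZIP factors of the ABF family are known to bind. They are the 250 bases before the annotated gene start in TAIR10.1 (RefSeq), written 5′ to 3′ on the strand of the gene, with each match in capitals, so that CACGT marks a match on the opposite strand. Where matches adjoin, the capitals run together. *KIN1* (AT5G15960) is at chr5:5209467-5209716 on the forward strand with 1 match, *RAB18* (AT5G66400) at chr5:26519448-26519697 on the reverse strand with 3, *HAI2* (AT1G07430) at chr1:2282829-2283078 on the reverse strand with 4, and *GPAT5* (AT3G11430), a suberin gene described below, at chr3:3595444-3595693 on the forward strand with 2.
*KIN1*: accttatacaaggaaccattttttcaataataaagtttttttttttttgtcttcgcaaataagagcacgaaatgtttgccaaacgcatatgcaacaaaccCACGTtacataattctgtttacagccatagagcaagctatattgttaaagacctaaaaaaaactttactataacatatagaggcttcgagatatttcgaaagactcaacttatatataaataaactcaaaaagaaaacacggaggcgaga
*RAB18*: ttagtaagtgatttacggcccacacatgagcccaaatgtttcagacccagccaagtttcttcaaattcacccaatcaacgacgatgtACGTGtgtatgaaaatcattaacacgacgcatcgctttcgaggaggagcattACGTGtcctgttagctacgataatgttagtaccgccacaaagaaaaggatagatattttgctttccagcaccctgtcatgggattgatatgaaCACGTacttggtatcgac
*HAI2*: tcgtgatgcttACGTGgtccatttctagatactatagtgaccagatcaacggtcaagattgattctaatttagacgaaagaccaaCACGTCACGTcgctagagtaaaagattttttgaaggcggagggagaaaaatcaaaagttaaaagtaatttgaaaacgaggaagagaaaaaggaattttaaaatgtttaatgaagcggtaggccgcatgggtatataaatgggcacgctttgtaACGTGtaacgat
*GPAT5*: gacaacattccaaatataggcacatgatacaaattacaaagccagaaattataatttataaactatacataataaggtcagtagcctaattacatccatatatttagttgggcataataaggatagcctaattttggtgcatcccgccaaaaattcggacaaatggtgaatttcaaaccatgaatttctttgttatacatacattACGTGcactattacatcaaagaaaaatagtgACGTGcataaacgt

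The ABRE core was present in 23.9% of the 250-base windows of all genes tested (4867 of 20326), in 30.9% of those of genes that rose (668 of 2165), in 38.2% of those that rose by over 2 log2 units (212 of 555) and in 24.3% of those that fell. It was present in 13 of 18 dehydrin and protective protein genes, 6 of 9 PP2C genes, 9 of 26 suberin genes and 2 of 24 aquaporin genes. Presence did not follow the calls in every list. It was found in 14 of 20 clock genes (3 rose, 1 fell) and 13 of 20 jasmonate genes (2 rose, 4 fell). Of the 8 heat shock protein genes, all of which rose, 2 held it. The core of the dehydration-responsive element, CCGAC on either strand, was present in 12.8% of all windows, 13.9% of those of genes that rose and 9.78% of those that fell. A match describes the letters of a window and not a binding site.

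Proline and the sugars of the raffinose family are solutes that plant cells gather under salt. *P5CS1*, for the enzyme that limits proline synthesis, was at 103.1, 71.8 and 88.3 CPM (mock) and 480.5, 502 and 362 CPM (salt) (log2 fold change 2.35 ± 0.16, adjusted *P* = 6.49e-10). *PRODH1*, for the first enzyme of proline breakdown, was at 436, 417 and 389 CPM (mock) and 166, 163 and 142 CPM (salt) (log2 fold change -1.40 ± 0.31, adjusted *P* = 0.00151), while *P5CDH*, for the second, rose by 1.08 ± 0.08. Galactinol synthases make the galactosyl donor for raffinose: *GolS4* was at 0.470, 0.286 and 0.101 CPM (mock) and 26.7, 30.7 and 57.4 CPM (salt) (log2 fold change 7.05 ± 0.64, adjusted *P* = 2.56e-08). *GolS2* was at 0.261, 0.114 and 0.403 CPM (mock) and 17.3, 14.2 and 16.7 CPM (salt) (log2 fold change 5.89 ± 0.85, adjusted *P* = 1.52e-05). *GolS1* rose by 2.53 ± 0.31. Of the 15 genes of this list tested, 6 rose and 4 fell, and the other genes that fell were *DIN10*, *SIP2* and the proline carrier gene *PROT1*. The call of *DIN10* was lost with any of the 6 libraries left out.

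Of 11 SWEET sugar carrier genes, 7 rose and 2 fell (median 2.5, and 1.78 without salt library 3, where 5 rose). Besides *SWEET15*, *SWEET11* was at 2.296, 2.11 and 1.91 CPM (mock) and 20.4, 22.99 and 15.9 CPM (salt) (log2 fold change 3.23 ± 0.37, adjusted *P* = 6.75e-07). *SWEET14* was at 0.157, 0.114 and 0.352 CPM (mock) and 11.3, 8.34 and 17.61 CPM (salt) (log2 fold change 5.83 ± 0.51, adjusted *P* = 1.72e-08), and *SWEET4*, silent under mock conditions, was at 7.78, 2.95 and 3.27 CPM on salt, at least 87.9-fold higher (58.6 without salt library 1). *SWEET16* and *SWEET17*, known as carriers of the vacuole membrane, were the ones that fell. *SWEET16* was at 21.7, 19.8 and 23.46 CPM (mock) and 2.48, 2.14 and 2.89 CPM (salt) (log2 fold change -3.11 ± 0.33, adjusted *P* = 2.56e-07). *SWEET17* fell by 1.11 ± 0.21 on the log2 scale.

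Sodium and potassium transport genes moved in both directions. *SKOR*, the channel that loads potassium into the xylem, was at 34.6, 34.6 and 56.1 CPM (mock) and 2.88, 2.54 and 12.95 CPM (salt) (log2 fold change -2.77 ± 0.59, adjusted *P* = 0.00122). *GORK*, the outward potassium channel of epidermis and guard cells, was at 19.2, 15.3 and 13.3 CPM (mock) and 63.997, 68.0 and 82.9 CPM (salt) (log2 fold change 2.17 ± 0.19, adjusted *P* = 1.51e-08). Salt library 3 had a *SKOR* level above those of the other salt libraries, but below all mock libraries. *HKT1*, the carrier that takes sodium out of the xylem, was at 3.97, 2.11 and 6.95 CPM (mock) and 0.173, 0.102 and 1.87 CPM (salt) (log2 fold change -2.59 ± 0.77, adjusted *P* = 0.0153), and its call was lost without mock library 3, salt library 1 or salt library 2. Of the salt overly sensitive pathway, *SOS1* did not pass (0.24 ± 0.12, adjusted *P* = 0.164), the calcium sensor gene *SOS3* rose by 1.23 ± 0.17 and the kinase gene *SOS2* fell by 0.61 ± 0.16. *NHX2*, for a vacuolar sodium and potassium exchanger, rose by 1.04 ± 0.16, *NHX6* by 0.93 ± 0.13, and the proton pump genes *AHA1* and *AHA2* by 1.03 ± 0.10 and 0.65 ± 0.17. In all, 8 of 20 genes of the list rose and 3 fell.

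Of 11 nitrate transport genes, 4 rose and 2 fell, and 1 of the latter kept its call with each library left out. *NRT2.1*, for a high-affinity carrier, was at 11.9, 16.8 and 13.7 CPM (mock) and 257, 198 and 246 CPM (salt) (log2 fold change 4.05 ± 0.52, adjusted *P* = 3.78e-06). *NRT1.8*, for a carrier that takes nitrate out of the xylem sap, was at 5.90, 8.11 and 4.23 CPM (mock) and 106, 87.6 and 36.8 CPM (salt) (log2 fold change 3.66 ± 0.43, adjusted *P* = 1.26e-06). *NRT1.1*, for the dual-affinity carrier and sensor, rose by 1.84 ± 0.31. *SLAH1*, a gene of the root stele needed for chloride transfer to the xylem, was at 3.76, 4.17 and 9.76 CPM (mock) and 0.115, 0 and 0.803 CPM (salt) (log2 fold change -4.25 ± 0.90, adjusted *P* = 0.00107). *NRT1.5*, which loads nitrate into the xylem, was at 566, 575 and 721 CPM (mock) and 336, 327 and 606 CPM (salt), with groups that overlapped (log2 fold change -0.55 ± 0.24, adjusted *P* = 0.0897).

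Aquaporins are the water channels of the plasma membrane (PIP) and the vacuole (TIP). Of 24 tested, 12 fell and 3 rose (median -0.60), and 7 of the 12 kept their call with each library left out. *PIP1;5* was at 234, 266 and 268 CPM (mock) and 58.6, 64.6 and 59.7 CPM (salt) (log2 fold change -2.07 ± 0.16, adjusted *P* = 3.37e-09). *PIP2;4* was at 105, 114 and 92.3 CPM (mock) and 22.9, 20.8 and 27.997 CPM (salt) (log2 fold change -2.12 ± 0.18, adjusted *P* = 1.25e-08). *PIP1;3* was at 895, 972 and 833 CPM (mock) and 346, 366 and 374 CPM (salt) (log2 fold change -1.31 ± 0.13, adjusted *P* = 7.15e-08). No salt library reached a mock library for these genes. *PIP2;7*, *TIP1;2*, *PIP2;1* and *NIP1;1* fell by 1.07 ± 0.11, 1.05 ± 0.19, 0.75 ± 0.17 and 1.74 ± 0.25. *PIP1;4*, *NIP5;1*, which carries boric acid, and *PIP2;5* rose by 0.54 ± 0.082, 0.74 ± 0.12 and 2.12 ± 0.51. *PIP1;2* was at 1476, 1612 and 1221 CPM (mock) and 1512, 1587 and 1254 CPM (salt) and did not pass (log2 fold change 0.015 ± 0.17, adjusted *P* = 0.962), and PIP genes are close enough in sequence that reads could have been split between them.

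The iron deficiency response had the lowest median of all lists, -2.04, with 10 of 16 genes down and 1 up. *IRT1*, the main iron importer of the root epidermis, was at 354, 362 and 366 CPM (mock) and 1.67, 3.102 and 5.25 CPM (salt) (log2 fold change -6.74 ± 0.87, adjusted *P* = 3.73e-06). *FRO2*, the ferric chelate reductase that works with it, was at 152, 179 and 159.6 CPM (mock) and 1.38, 1.88 and 1.93 CPM (salt) (log2 fold change -6.55 ± 0.75, adjusted *P* = 7.71e-07). *CYP82C4*, for an enzyme that makes the iron-mobilising coumarin sideretin, was at 30.99, 54.9 and 24.8 CPM (mock) and 0, 0.254 and 0.268 CPM (salt) (log2 fold change -7.63 ± 1.11, adjusted *P* = 1.77e-05). Each of these was high in every mock library and near 0 in every salt library. The bHLH genes of subgroup Ib that switch on this response fell with them, *BHLH38* by 1.69 ± 0.42, *BHLH39* by 2.05 ± 0.37, *BHLH100* by 2.73 ± 0.61 and *BHLH101* by 2.52 ± 0.67.

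*FIT*, the partner of those bHLH factors, was at 110.6, 106 and 114 CPM (mock) and 75.5, 81.1 and 72.2 CPM (salt), a log2 fold change of -0.53 ± 0.17 (SE), adjusted *P* = 0.0253, and its call was lost when any of 4 libraries was left out. *MYB72* had 31 counts over the mock libraries and none on salt, at least 10.6-fold lower (4.74 without mock library 2), but did not pass the test (adjusted *P* = 0.0529). *NAS4*, for a nicotianamine synthase, rose by 1.03 ± 0.36, a call that was lost when any of 5 libraries was left out, and *OPT3* and *PDR9* had values of 0.31 and 0.0017. Outside the list, AT3G12900, for an oxoglutarate-dependent oxygenase, was silent on salt in all 3 libraries and at least 64-fold lower, and *ZIP8*, of the zinc and iron transporter family, at least 35.6-fold lower (16.8 without mock library 2). AT1G76800 (VTL2) was at 4.96, 12.5 and 7.10 CPM (mock) and 0.0576, 0 and 0.0535 CPM (salt) (log2 fold change -7.58 ± 0.94, adjusted *P* = 2.23e-06).

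**Figure D3:**
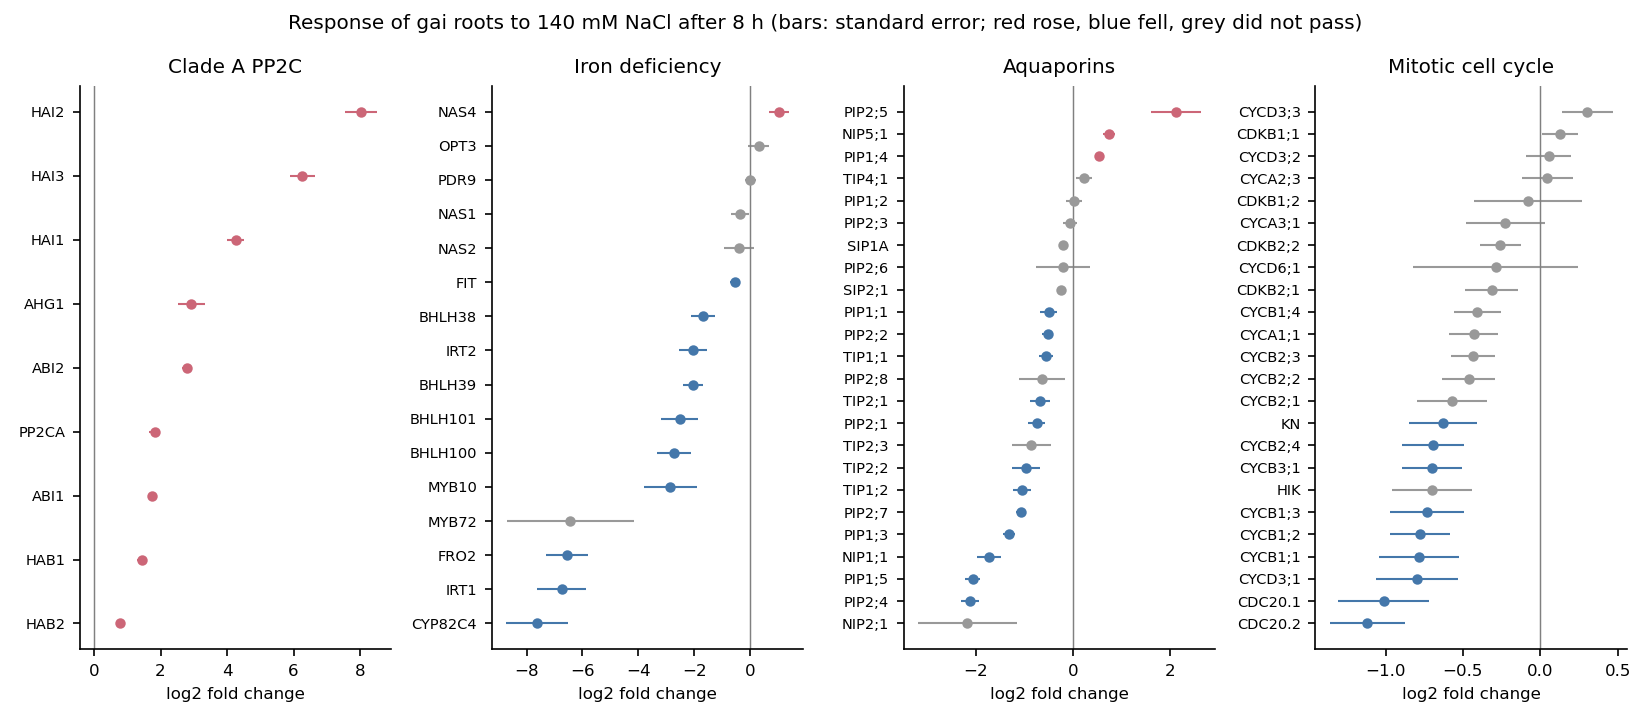
Log2 fold change in *gai* after 8 h on 140 mM NaCl (points, with the standard error as bars) of each gene tested among the clade A PP2C, iron deficiency, aquaporin and mitotic cell cycle genes; red genes rose, blue genes fell and grey genes did not pass the test. All 9 PP2C genes lie above 0, 10 of 16 iron deficiency genes and 12 of 24 aquaporin genes fell, and 9 of 24 mitotic genes fell.

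The cell wall enzymes did not move as 1 group. Of 16 α-expansin genes, which loosen the wall at acid pH, 9 rose and none fell (median 1.06, and 0.79 without salt library 3), and 7 of the 9 kept their call with each library left out. *EXPA10* was at 1.25, 0.914 and 0.856 CPM (mock) and 106.5, 94.9 and 48.0 CPM (salt) (log2 fold change 6.36 ± 0.38, adjusted *P* = 7.51e-11). *EXPA1* was at 9.39, 10.0001 and 12.6 CPM (mock) and 191, 183 and 155 CPM (salt) (log2 fold change 4.04 ± 0.26, adjusted *P* = 2.76e-10). *EXPA17*, *EXPA9*, *EXPA11* and *EXPA4* rose by 1.14 ± 0.17, 1.12 ± 0.13, 1.25 ± 0.14 and 1.09 ± 0.24. *EXPA7* and *EXPA18*, known from root hair cells, did not pass, and salt library 3 was the lowest salt library for both: *EXPA7* was at 41.2, 54.3 and 54.4 CPM (mock) and 87.2, 76.7 and 50.5 CPM (salt), and *EXPA18* at 73.8, 80.6 and 70.4 CPM (mock) and 97.2, 91.0 and 52.3 CPM (salt).

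Of 29 *XTH* genes, 7 rose and 7 fell (median 0.16). Besides *XTH16*, *XTH15* and *XTH21*, *XTH9*, *XTH2* and *XTH30* fell, with log2 fold changes of -2.28 ± 0.27, -3.601 ± 0.91 and -0.72 ± 0.13. *XTH20* was at 7.77, 12.3 and 10.4 CPM (mock) and 60.1, 54.9 and 25.9 CPM (salt) (log2 fold change 2.21 ± 0.45, adjusted *P* = 7.16e-04), with salt library 3 below the others and above all mock libraries, and *XTH23*, *XTH11* and *XTH28* rose by 1.88 ± 0.44, 3.87 ± 0.95 and 0.64 ± 0.12. *XTH12* to *XTH14*, close copies of each other, did not pass, and *XTH13* was at 15.03, 16.7 and 18.02 CPM (mock) and 53.6, 49.5 and 21.1 CPM (salt). Reads of such copies, and of *XTH18* to *XTH20*, could have been assigned to either gene.

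Genes of the secondary cell wall moved little: 4 of 23 rose, none fell, and the median was 0.24, against 10 that rose and a median of 0.42 in L*er*. The count of 4 ran from 1 (without mock library 3) to 7 (without mock library 1), and was 2 without mock library 2. The median difference of responses to L*er* was -0.23. In the edgeR test of that difference 4 of the 23 genes had an unadjusted *P* under 0.05 and none an adjusted one. The subunits of the secondary wall cellulose synthase, *CESA4*, *CESA7* and *CESA8*, had values of 0.13 ± 0.12, 0.38 ± 0.16 and 0.15 ± 0.17 and did not pass, with overlapping groups for each. *IRX14-L*, for a xylan synthase protein, was at 6.84, 4.8001 and 4.08 CPM (mock) and 8.93, 8.70 and 13.1 CPM (salt) (log2 fold change 0.96 ± 0.23, adjusted *P* = 0.00287) and kept its call throughout. Of 27 xylem regulators, 5 rose and 2 fell, and 3 rose without mock library 3 or salt library 3. *ACL5*, for the thermospermine synthase that holds back xylem vessel maturation, was at 42.3, 34.7 and 33.5 CPM (mock) and 2.94, 4.73 and 7.28 CPM (salt) (log2 fold change -2.88 ± 0.30, adjusted *P* = 1.89e-07), and *AHP6*, an inhibitor of cytokinin signalling in the protoxylem, was at 2.71, 2.46 and 3.98 CPM (mock) and 0.346, 0.254 and 1.07 CPM (salt) (log2 fold change -2.44 ± 0.79, adjusted *P* = 0.0262), with a call that was lost without mock library 3, salt library 1 or salt library 2. *MYB85* was at 0.574, 0.286 and 0.755 CPM (mock) and 4.78, 3.05 and 3.53 CPM (salt) (log2 fold change 2.79 ± 0.51, adjusted *P* = 2.37e-04), and *VND6*, for a NAC factor known to drive the formation of metaxylem vessels, was at 0.887, 0.629 and 0.554 CPM (mock) and 2.304, 1.63 and 4.28 CPM (salt) (log2 fold change 1.98 ± 0.42, adjusted *P* = 9.87e-04), without overlap, and kept its call with each library left out. Its response was above that in L*er* by 0.92 ± 0.57 (SE, adjusted *P* = 0.9999), above that in *ga4* by 0.46 ± 0.57 and above that in *della5x* by 1.76 ± 0.56 (SE, adjusted *P* = 0.444), none of which passed. *VND7*, its relative known from the protoxylem, lay between 1.09 and 3.05 CPM in the 6 libraries and did not pass (0.55 ± 0.45). *MYB46*, *VND2* and *SND3* rose, each with a call that 1 to 4 left-out libraries removed.

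Of 8 genes of xylem cell death, *BFN1*, for a nuclease, rose by 1.19 ± 0.16 and *CEP1* by 3.45 ± 0.64, while *XCP1* and *XCP2*, for the cysteine proteases of the vessel, did not pass (0.35 and -0.0001). Of 25 lignin genes, 3 rose and 4 fell. *CCR2*, for a cinnamoyl-CoA reductase, was at 31.4, 19.1 and 12.2 CPM (mock) and 84.6, 80.4 and 96.1 CPM (salt) (log2 fold change 2.06 ± 0.25, adjusted *P* = 1.38e-06) and *CAD5* rose by 1.000 ± 0.11, whereas *CAD4* fell by 0.76 ± 0.11. *PRX71*, for a wall peroxidase, was at 639.7, 559 and 629 CPM (mock) and 100.3, 102.9 and 208 CPM (salt) (log2 fold change -2.15 ± 0.29, adjusted *P* = 6.27e-06), with salt library 3 above the other salt libraries.

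The barriers of the endodermis moved in opposite directions. The CASP proteins scaffold the Casparian strip, the lignin belt that seals the wall, and suberin is the waxy polyester laid down on the inner wall face later. Of 8 Casparian strip genes, 6 fell and 1 rose (median -0.79), and 4 of the 6 kept their call with each library left out. *CASP1* was at 206, 215 and 176 CPM (mock) and 100.7, 99.3 and 89.8 CPM (salt) (log2 fold change -1.04 ± 0.12, adjusted *P* = 7.73e-07), and *CASP2* and *CASP4* fell by 1.103 ± 0.14 and 0.80 ± 0.20. *SGN3*, for the receptor kinase that watches over the strip, was at 86.7, 56.1 and 68.6 CPM (mock) and 142, 151 and 136 CPM (salt) (log2 fold change 1.02 ± 0.14, adjusted *P* = 6.77e-06), and *MYB36*, the factor that switches on the *CASP* genes, did not pass (0.43 ± 0.18, adjusted *P* = 0.0931).

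Of 26 suberin genes, 21 rose and none fell, with a median of 1.05, and 17 kept their call with each library left out (18 rose without salt library 3). *CYP86A1*, for the fatty acid ω-hydroxylase of root suberin, was at 254, 221 and 199 CPM (mock) and 576, 599.6 and 591 CPM (salt) (log2 fold change 1.39 ± 0.17, adjusted *P* = 2.27e-06). *GPAT5*, for the acyltransferase that makes suberin monomers, was at 61.5, 54.4 and 55.8 CPM (mock) and 116, 124 and 130.1 CPM (salt) (log2 fold change 1.11 ± 0.13, adjusted *P* = 7.21e-07). *FAR1*, *FAR4* and *FAR5*, for the reductases that make its fatty alcohols, rose by 2.53 ± 0.29, 1.71 ± 0.15 and 1.39 ± 0.14. The transporter genes *ABCG1*, *ABCG6*, *ABCG16*, *ABCG2* and *ABCG20* rose by 2.19, 1.24, 1.31, 0.85 and 0.62, the last with a call that was lost without mock library 2. Among the MYB factors known to act on suberin, *MYB93* was at 43.5, 34.2 and 30.05 CPM (mock) and 94.3, 93.7 and 93.4 CPM (salt) (log2 fold change 1.38 ± 0.17, adjusted *P* = 2.49e-06), *MYB107* rose by 1.84 ± 0.17 and *MYB53* by 1.07 ± 0.17. *MYB41*, *MYB39* and *MYB9* did not pass (0.79 ± 0.41, -1.28 ± 0.67 and 0.47 ± 0.17), and *MYB92* stayed inside the fold change limit (-0.43 ± 0.11, adjusted *P* = 0.00398), with all salt libraries of *MYB39* and *MYB92* below the mock libraries.

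Genes of growth fell in smaller number. Of 24 mitotic cell cycle genes, 9 fell and none rose (median -0.45), and the count rested on single libraries: it was 13 without salt library 3, and 3 without salt library 1 and 3 without salt library 2. Salt library 3 was the highest of the salt libraries for 8 of the 9, with *CYCB3;1* as the exception. *CDC20.2*, for an activator of the anaphase-promoting complex, was at 43.9, 44.4 and 47.4 CPM (mock) and 21.3, 15.8 and 25.5 CPM (salt) (log2 fold change -1.12 ± 0.25, adjusted *P* = 0.00149). *CYCB1;2*, for a B-type cyclin, was at 50.0, 47.8 and 45.05 CPM (mock) and 22.2, 26.3 and 34.6 CPM (salt) (log2 fold change -0.78 ± 0.19, adjusted *P* = 0.00446). *CYCB1;1*, at 16.9, 21.4 and 21.2 CPM (mock) and 10.8, 8.49 and 15.3 CPM (salt), had a log2 fold change of -0.78 ± 0.26 (SE), adjusted *P* = 0.027, and 4 left-out libraries removed its call. The kinase gene *CDKB2;1* did not pass (-0.31 ± 0.17). Of 11 cell cycle inhibitors, *SMR5*, known for its response to stress, rose by 2.13 ± 0.41 and *KRP6* by 1.06 ± 0.21, and *KRP2* and *SIM* fell with calls that single libraries removed.

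Of 26 cytokinin genes, 8 fell and 4 rose, of which 2 rose without mock library 2 or mock library 3. *IPT3*, for a cytokinin synthesis enzyme, was at 5.95, 7.71 and 10.7 CPM (mock) and 0.403, 0.915 and 1.61 CPM (salt) (log2 fold change -3.04 ± 0.48, adjusted *P* = 5.44e-05) and *IPT5* fell by 1.03 ± 0.19. The type-A response regulator gene *ARR5*, a primary target of cytokinin, was at 31.1, 31.1 and 33.3 CPM (mock) and 13.4, 11.3 and 16.3 CPM (salt) (log2 fold change -1.22 ± 0.23, adjusted *P* = 4.37e-04), and *ARR4* and *ARR6* fell by 0.87 ± 0.15 and 0.88 ± 0.18. *LOG7* and *LOG5*, for enzymes that release active cytokinin, parted: *LOG7* fell by 1.04 ± 0.087 and *LOG5* was at 1.67, 1.49 and 0.906 CPM (mock) and 15.7, 15.8 and 23.4 CPM (salt) (log2 fold change 3.76 ± 0.26, adjusted *P* = 7.39e-10).

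Of 30 auxin genes, 4 rose and 4 fell. The influx carrier genes *LAX2* and *LAX3* fell by 1.25 ± 0.21 and 0.68 ± 0.13, the response genes *IAA1*, *IAA2* and *IAA7* rose by 1.42 ± 0.30, 0.61 ± 0.095 and 0.61 ± 0.15, and the efflux carrier gene *PIN2* did not pass (-0.075 ± 0.17). Of 15 patterning genes, *WOX5*, which marks the quiescent centre, was at 2.92, 3.43 and 3.32 CPM (mock) and 9.39, 7.32 and 10.5 CPM (salt) (log2 fold change 1.49 ± 0.25, adjusted *P* = 9.30e-05). *SHR*, which specifies the endodermis, was at 45.3, 48.1 and 42.3 CPM (mock) and 28.2, 26.4 and 21.6 CPM (salt) (log2 fold change -0.83 ± 0.10, adjusted *P* = 2.85e-06). *SCR*, the partner of *SHR*, did not pass (-0.27 ± 0.10, adjusted *P* = 0.0563). The other 3 patterning genes that fell, *PLT1*, *JKD* and *RGF3*, lost their call without salt library 3, and also without mock library 1, and *PLT1* and *RGF3* also without salt library 2. Of 18 root hair genes, 3 that act in cell fate or hair growth fell, *GL2* by 1.11 ± 0.29, *RSL2* by 0.98 ± 0.20 and *WER* by 0.75 ± 0.19, and the wall protein genes *LRX2* and *PRP1* rose by 1.36 ± 0.23 and 1.65 ± 0.46.

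Among 60 genes of stress transcription factors 29 rose and 3 fell (median 0.99). *HB-7*, a homeodomain-leucine zipper gene of the ABA response, was at 11.9, 18.9 and 8.76 CPM (mock) and 119.7, 122 and 148 CPM (salt) (log2 fold change 3.304 ± 0.25, adjusted *P* = 2.32e-09) and its close relative *HB-12* at 1.15, 1.37 and 0.252 CPM (mock) and 21.4, 15.9 and 24.5 CPM (salt) (log2 fold change 4.49 ± 0.54, adjusted *P* = 1.46e-06). *HSFA6B*, a heat shock factor gene also known from the ABA response, was at 43.3, 52.9 and 38.9 CPM (mock) and 211, 216 and 229.6 CPM (salt) (log2 fold change 2.28 ± 0.21, adjusted *P* = 4.56e-08). *MYB112* was at 1.20, 2.17 and 0.956 CPM (mock) and 15.96, 15.6 and 13.8 CPM (salt) (log2 fold change 3.39 ± 0.39, adjusted *P* = 9.42e-07). The NAC genes *RD26*, *ATAF1* and *NAC6* rose by 1.26 ± 0.19, 0.997 ± 0.10 and 1.78 ± 0.20, and *NAC019*, silent under mock conditions, was at 3.34, 1.83 and 4.18 CPM on salt, at least 58.7-fold higher. *DREB2A*, a factor of drought and heat responses, rose by 0.76 ± 0.21. The cold-response genes *CBF1*, *CBF2* and *CBF3* had at most 1.499 CPM in any *gai* library and did not pass. *TINY*, *NTL4* and *WRKY70* fell, the first by 0.96 ± 0.17, and the call of *WRKY70* was lost without mock library 2 or salt library 1.

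Of 15 heat shock protein genes listed 8 were tested, and all 8 rose (median 3.14, and 6 rose without salt library 3). *HSP22.0*, for a small heat shock protein of the endoplasmic reticulum, was at 0.835, 1.03 and 0.654 CPM (mock) and 33.9, 36.8 and 98.1 CPM (salt) (log2 fold change 6.07 ± 0.60, adjusted *P* = 1.02e-07). *HSP17.4* was at 0.157, 1.43 and 0.805 CPM (mock) and 11.2, 12.5 and 27.2 CPM (salt) (log2 fold change 4.42 ± 0.61, adjusted *P* = 9.73e-06). *HSP70* was at 50.0, 80.2 and 84.9 CPM (mock) and 223, 245 and 317 CPM (salt) (log2 fold change 1.87 ± 0.26, adjusted *P* = 1.26e-05). Salt library 3 was the highest in all 3, and the salt libraries stayed above the mock libraries without it. Of 29 genes of reactive oxygen metabolism, 5 rose and 1 fell: *APX2*, for an ascorbate peroxidase with almost no count under mock conditions, was at 0, 0.0571 and 0 CPM (mock) and 3.86, 4.07 and 8.51 CPM (salt) (log2 fold change 7.82 ± 1.11, adjusted *P* = 1.24e-05), while the abundant *APX1* did not pass the fold change limit (-0.21 ± 0.077).

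The remaining hormone lists gave few calls. Of 18 ethylene genes, 5 rose and 1 fell (2 without salt library 1), among them *ACS6*, for a synthase of the ethylene precursor, at 14.3, 14.4 and 11.5 CPM (mock) and 52.8, 44.96 and 79.9 CPM (salt) (log2 fold change 2.14 ± 0.33, adjusted *P* = 4.14e-05). Of 20 jasmonate genes 2 rose (1 without mock library 1 or salt library 3) and 4 fell (2 without salt library 1 or 2), and of 16 brassinosteroid genes 3 rose and 1 fell (2 without mock library 1, mock library 2 or salt library 3): *BR6OX1*, for a late step of brassinosteroid synthesis, was at 8.09, 5.89 and 7.198 CPM (mock) and 0.922, 2.29 and 0.321 CPM (salt) (log2 fold change -2.57 ± 0.42, adjusted *P* = 7.33e-05). Of 20 clock genes, 3 rose and 1 fell (2 without mock library 2, salt library 2 or salt library 3, and 3 without mock library 3), *CCA1* by 1.87 ± 0.36 upward and *CHE* by 1.32 ± 0.21 downward. None of 9 flavonoid genes passed, and 1 fell without mock library 1. Of 14 genes of ER bodies and their β-glucosidases, 2 rose, *BGLU24* among them, and 7 fell, including *BGLU21* (-0.99 ± 0.17), *PBP1* (-0.79 ± 0.14) and *NAI2* (-0.60 ± 0.13), and all 9 kept their calls with each library left out.

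The response of *gai* was then compared with that of the other genotypes by the difference between log2 fold changes, tested in the same fit. Against L*er*, 7 genes (0.0344% of those tested) had an adjusted *P* under 0.05, all with a lower value in *gai*, and 1073 (5.27%) had an unadjusted *P* under 0.05, 672 lower in *gai* and 401 higher. Against *ga4*, the other line with less GA signalling, edgeR called 0 genes (0%), DESeq2 called 1, and 733 (3.6%) had an unadjusted *P* under 0.05. The smallest adjusted *P* for *ga4* was 0.212. Against *della5x*, 6 genes (0.0295%) had an adjusted *P* under 0.05, 4 lower and 2 higher in *gai*, and 1391 (6.83%) an unadjusted one, 889 lower and 502 higher. These counts depended on the method: DESeq2 called 81 genes against L*er* and 65 against *della5x*. In simulated data of this design 46% of genes whose response differed by 1 log2 unit between *gai* and L*er* were recovered, and 84% of those that differed by 2, so that small differences would be missed. The changed genes were drawn only from those with higher expected counts, so these shares do not cover genes with few counts. No other group was simulated with a response to salt. In the same simulated data 11 unchanged genes were called. Each comparison uses the same 6 *gai* libraries. The counts rest on single libraries: the 7 against L*er* became 1 without *gai* salt library 1 or 2, L*er* mock library 3 or L*er* salt library 1, 2 without L*er* salt library 3, 4 without L*er* mock library 1, 14 without L*er* mock library 2 and 18 without *gai* mock library 2. The 6 against *della5x* became 1 to 3 without any of 11 of the 12 libraries, the exception being *gai* salt library 3.

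The gene with the smallest *P* in each of the 3 comparisons was AT5G47530, annotated as an auxin-responsive family protein. It was at 67.7, 56.9 and 58.4 CPM (mock) and 65.3, 63.4 and 75.1 CPM (salt) in *gai*, a log2 fold change of 0.16 ± 0.097 (SE), adjusted *P* = 0.263, while its L*er* libraries were at 41.1, 38.8 and 39.0 CPM under mock conditions and 100.2, 98.2 and 97.0 CPM on salt. The difference of responses was -1.16 ± 0.14 (SE, adjusted *P* = 6.22e-04) against L*er*, -1.38 ± 0.14 (SE, adjusted *P* = 2.83e-05) against *della5x* and -0.78 ± 0.14 (SE, adjusted *P* = 0.212) against *ga4*. All *gai* mock libraries lay above all L*er* mock libraries and all *gai* salt libraries below all L*er* salt libraries. AT4G17280, of the same annotated family, was at 128, 123 and 126 CPM (mock) and 166, 160.2 and 162 CPM (salt) in *gai*, with a difference of -0.72 ± 0.12 (SE, adjusted *P* = 0.0137) against L*er* and -0.66 ± 0.12 (SE, adjusted *P* = 0.0467) against *della5x*.

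The suberin genes *KCS20*, for a fatty acid elongase, and *GPAT5* were among the 7 genes that differed from L*er*. *KCS20* was at 65.2, 59.5 and 68.0 CPM (mock) and 77.9, 80.6 and 85.4 CPM (salt) in *gai*, and at 61.0 ± 2.602 and 129 ± 5.15 CPM (mean ± SD, n = 3) in L*er*, a difference of responses of -0.74 ± 0.12 (SE, adjusted *P* = 0.0137). *GPAT5* was at 42.7 ± 7.39 CPM under mock conditions and 198 ± 12.1 CPM on salt in L*er*, against 57.2 ± 3.75 and 123 ± 7.14 CPM in *gai*, a difference of -1.11 ± 0.18 (SE, adjusted *P* = 0.0137). For both genes the salt libraries of *gai* lay below those of L*er* without overlap. The other genes were AT5G47635 (-1.08 ± 0.17, SE, adjusted *P* = 0.0137), for a protein of the Ole e 1 and extensin family, AT3G62590 (-0.92 ± 0.16, SE, adjusted *P* = 0.0293), for a hydrolase, and the F-box protein gene AT2G41170 (-1.07 ± 0.19, SE, adjusted *P* = 0.0309).

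Over the suberin list the value in *gai* was lower than in L*er* for 25 of 26 genes, with a median difference of -0.80, and 22 of the 26 had an unadjusted *P* under 0.05, where 5.27% of all genes tested did. The list was chosen with earlier results of these data known. Its genes were measured in the same libraries, so the 26 are not independent tests. Without salt library 3, 25 of 26 were again lower, with 22 at an unadjusted and 3 at an adjusted *P* under 0.05. The exception was *FAR1*, with 2.53 in *gai* and 2.05 in L*er*. *ABCG16* had the widest gap, 1.31 against 3.22, and *MYB9* was at 0.47 against 1.33. The median over the list was 1.05 in *gai*, 1.36 in *ga4*, 1.49 in *della5x* and 1.81 in L*er*. Against *ga4* 19 of 26 genes were lower in *gai* (median difference -0.29), with 9 at an unadjusted *P* under 0.05 and none at an adjusted one, and against *della5x* 23 of 26 (median -0.33), with 10 and 0. In that order of medians *gai* was the lowest of the 4 genotypes.

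**Figure D4:**
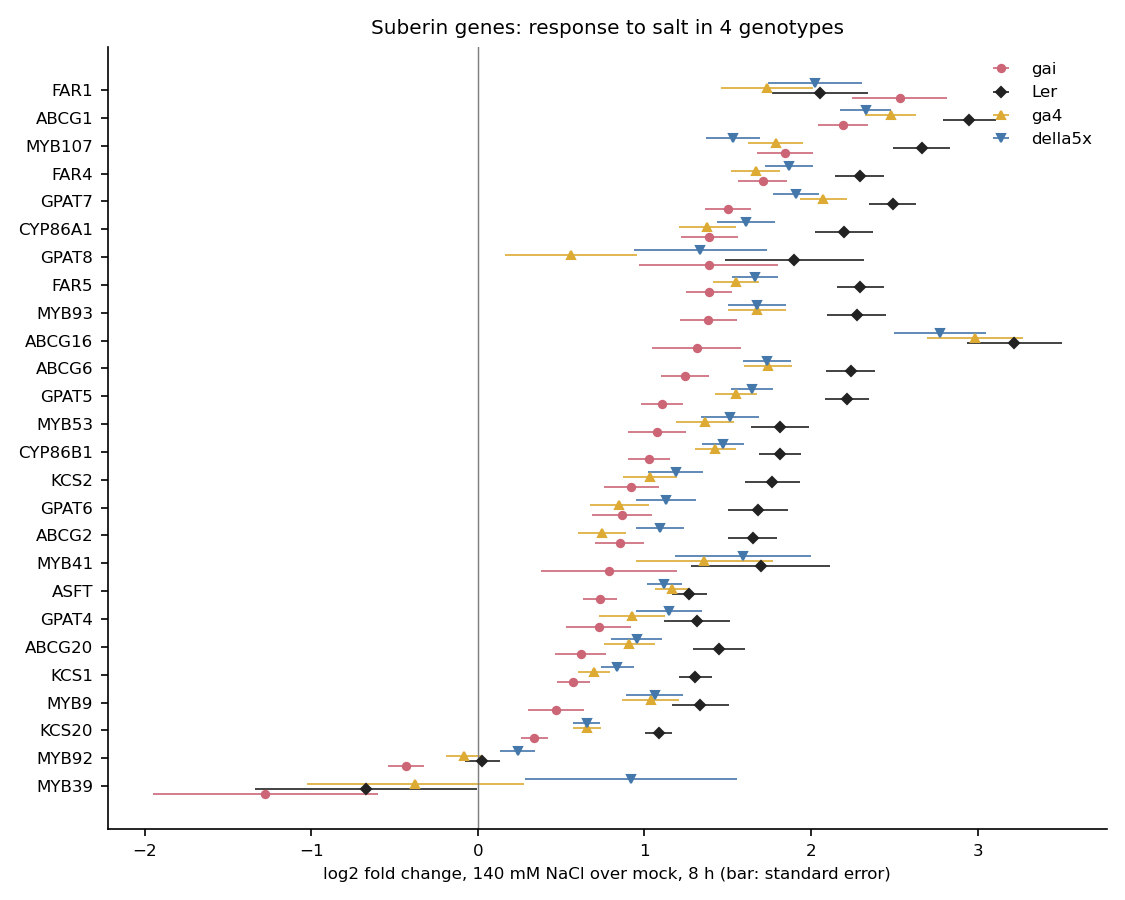
Log2 fold change after 8 h on 140 mM NaCl (points, with the standard error as bars) of the 26 suberin genes tested, in *gai* (red), L*er* (black), *ga4* (yellow) and *della5x* (blue). The value in L*er* lies to the right of that in *gai* for 25 of the 26 genes, with *FAR1* as the exception.

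By the median difference of responses, the other lists held less of a gap to L*er*. It was -0.196 for the dehydrins and protective proteins, though their medians were 3.49 in *gai* and 4.54 in L*er*. Of 60 stress transcription factor genes, 45 had a lower value in *gai* (median difference -0.427). Of these 60, 10 had an unadjusted *P* under 0.05 and none an adjusted one. Against *della5x* 54 of the 60 were lower in *gai* (median -0.867), with 25 and 0, beside -0.325 for the suberin genes. All 9 PP2C genes had a lower value in *gai* than in L*er* (median difference -0.53), with 4 at an unadjusted *P* under 0.05 and none at an adjusted one. Of the mitotic cell cycle genes, 17 of 24 fell in L*er* (median -0.89, against -0.45 in *gai*), and 3 differed at an unadjusted *P* under 0.05 and none at an adjusted one. Without *gai* salt library 3, 13 of the 24 fell in *gai* (median -0.63). The median difference was then 0.205, in place of 0.37. The iron deficiency medians were -2.04 and -1.93, and those of the aquaporins -0.60 and -0.74.

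Against *della5x* the remaining genes were *KIN1*, *LEA7*, *LHT7* and *AtIPCS1*. *KIN1* had a higher response in *gai* (2.63 ± 0.44, SE, adjusted *P* = 0.0467), with mock levels of 73.3, 29.1 and 38.4 CPM in *della5x* against 4.54, 8.40 and 6.64 CPM in *gai* and overlapping levels on salt (1402, 1684 and 1394 CPM in *della5x*). *LEA7* had a lower response (-6.02 ± 1.03, SE, adjusted *P* = 0.0467), with mock levels of 0.383, 0.0439 and 0.0941 CPM in *della5x* against 18.8, 17.7 and 6.49 CPM in *gai*. For both genes the mock libraries of the genotypes did not overlap. *LHT7*, an amino acid carrier gene, was silent in the *della5x* mock libraries and at most 2.35 CPM elsewhere in *della5x*, and lay between 0.642 and 1.62 CPM in all *gai* libraries, so that its fitted difference has no defined size. *AtIPCS1*, for an inositol phosphorylceramide synthase, was at 11.6, 12.9 and 11.1 CPM (mock) and 31.7, 37.1 and 38.01 CPM (salt) in *gai* and rose more there than in *della5x* (1.02 ± 0.18, SE, adjusted *P* = 0.0467).

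**Figure D5:**
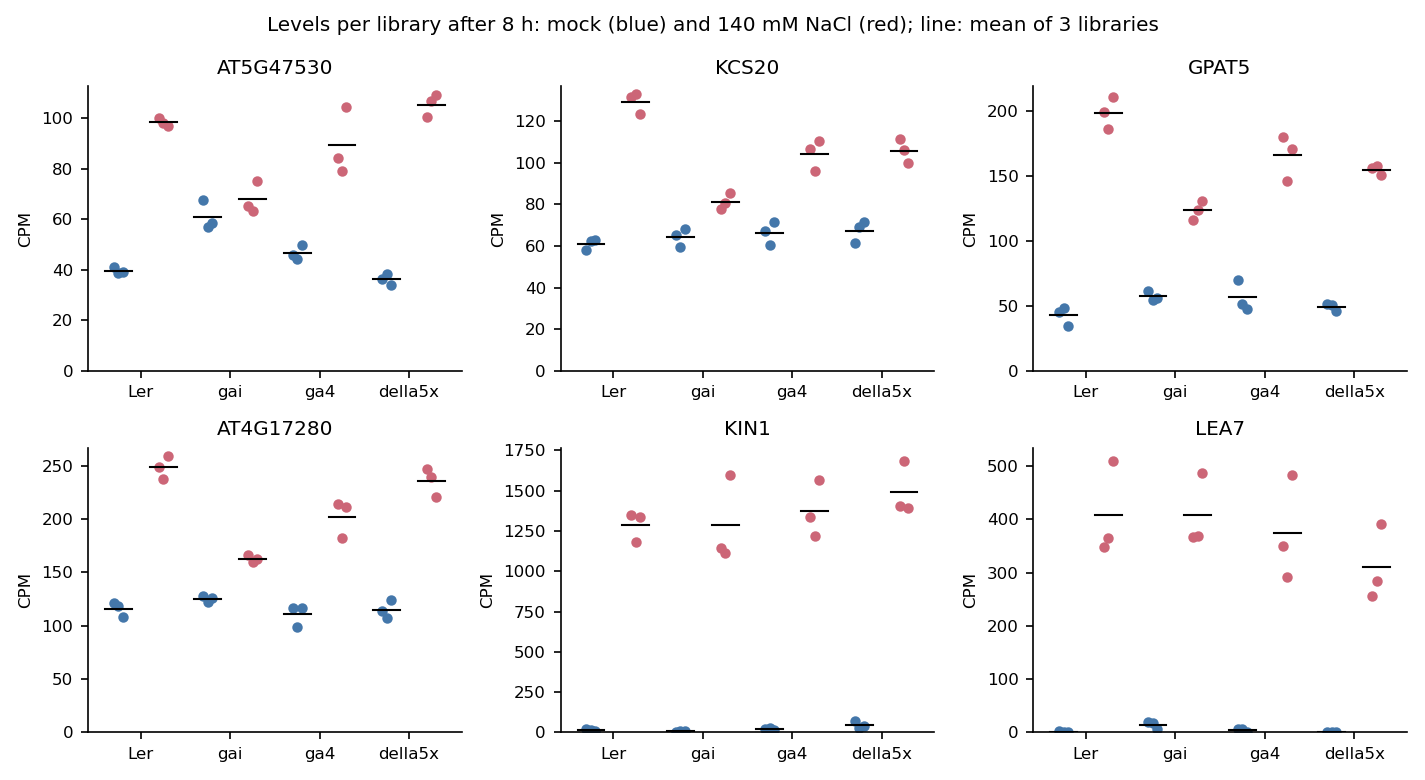
CPM of each library after 8 h under mock conditions (blue) and on 140 mM NaCl (red) in L*er*, *gai*, *ga4* and *della5x*, with the mean of 3 libraries as a line, for 6 genes whose response in *gai* differed from that in L*er* or *della5x*. AT5G47530, *KCS20*, *GPAT5* and AT4G17280 are lower on salt in *gai* than in the other genotypes, *KIN1* has a higher mock level in *della5x*, and *LEA7* a higher mock level in *gai*.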

How the data were processed

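RNA of the lower part of roots was sequenced as paired ends (NEBNext Ultra libraries). The authors trimmed reads with fastp, mapped them to TAIR10 with HISAT2 and deposited raw counts per gene made with HTSeq. Counting mode and strand setting are not given in the sources used here, so overlapping genes, antisense partners and close copies within families are uncertain. Groups came from the sample labels, and replicates were separate pools of seedlings.

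Starting from these deposited counts (28775 genes, 28009 found in the RefSeq annotation of TAIR10.1), all 24 libraries of 8 h were fitted in R 4.3.3 with edgeR 4.0.16 (TMM, filterByExpr with a minimum count of 10 and total of 15, quasi-likelihood test, 1 coefficient per group). Calls needed a Benjamini-Hochberg adjusted *P* under 0.05 and a change beyond 0.5 log2 units, and differences of responses at an adjusted *P* under 0.05. Errors are standard errors of the log2 fold change (SE) or SD over 3 libraries. The SE is the absolute log2 fold change divided by the square root of the quasi-likelihood *F*. It is a poor guide for changes near 0 and for genes with a silent group. A silent group was set to a floor of 3 counts over its libraries. That floor covers counting error only. Depth was 17375311 to 19550290 counts in the *gai* libraries.

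Named genes are members of 40 functional lists (788 entries, of which 754 were matched and 686 tested), the 15 genes of smallest *P* and the 10 called genes of largest fold change in each direction, and the genes of the differences. The members and lists were chosen with earlier results of these data known. Alternatives were RLE size factors, no filter on low counts, DESeq2 1.42.0, a fit of only the genotypes compared, and each library left out. In data simulated from the real means, 66% of genes changed by 1 log2 unit and 94% of those changed by 2 were recovered for the *gai* response. The changed genes were drawn only from those with higher expected counts, and 4 unchanged genes were called.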

Additional observations from a re-analysis of the deposited data

Results flagged for a closer look

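Each of the following genes had a response to 8 h of salt in *gai* that differed from that of another genotype by the edgeR test of the difference itself (adjusted *P* under 0.05). Against L*er* the differences of log2 fold changes were -1.16 for AT5G47530, -1.08 for AT5G47635, -0.745 for *KCS20*, -1.11 for *GPAT5*, -0.725 for AT4G17280, -0.915 for AT3G62590 and -1.07 for AT2G41170, all lower in *gai*.

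Against *della5x* they were -1.38 for AT5G47530, 2.63 for *KIN1*, -6.02 for *LEA7*, -0.658 for AT4G17280 and 1.02 for *AtIPCS1*. The value of -7.91 for *LHT7* depends on the *della5x* mock libraries, which held no count of the gene, and has no defined size.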

How the results depend on the processing

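The number of genes up in *gai* was 2166, and 2130, 2106, 2216 and 2021 with RLE size factors, no filter on low counts, DESeq2 and a fit of the genotypes compared only; the number down was 1700, and 1736, 1695, 1814 and 1729. With each *gai* library left out they ran from 1855 to 2068 and from 1450 to 1632. The counts of differing responses moved more. Against L*er*, DESeq2 gave 81 and the fit of the genotypes compared only 22 in place of 7, and the range with a library left out was 1 to 18. Against *ga4*, DESeq2 gave 1 in place of 0, and each library left out gave 0. Against *della5x*, no filter gave 10, DESeq2 65 and the fit of the genotypes compared only 2 in place of 6, with a range of 1 to 7. The cause was not tested. Of the 233 genes given with values of their response in *gai*, 194 were called. None of the 233 changed direction in a setting where it was called there or in the main fit. Genes that did not pass could change sign, as *PIP1;2* did (-0.0983 to 0.0995 with each *gai* library left out). Of the 233 genes, 11 lost their call and 9 gained one under at least 1 setting. Of the 13 called differences of single genes, 11 lost their call. No paired analysis was possible because the labels give no replicate numbers, and the numbers used here only name libraries in the order of their accessions. The simulated recovery limits what can be said of changes near 1 log2 unit. In the main fit p-values set a change against the spread between pools of seedlings, estimated over all 24 libraries of 8 h.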

Other observations

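Genes of aliphatic glucosinolate synthesis, a set chosen after their values were seen and so given as a description, separated salt library 3 from the other *gai* salt libraries. *MAM1* of this set did not, and was at 0, 0 and 0.0535 CPM on salt. *CYP83A1*, for the enzyme that converts the aldoximes of this pathway, was at 22.8, 18.11 and 34.1 CPM under mock conditions and 0, 0.102 and 9.69 CPM on salt. *BCAT4*, for the first step of methionine chain elongation, was at 11.1, 9.09 and 22.0 CPM and at 0.346, 0.153 and 14.8 CPM. In the edgeR fit *CYP83A1* had a log2 fold change of -2.93 ± 1.09 (SE, adjusted *P* = 0.0506), and -8.70 ± 1.98 (adjusted *P* = 0.0027) without salt library 3. *MYB28*, the regulator of the pathway, had -1.22 ± 0.43 (adjusted *P* = 0.0419), and -2.07 ± 0.44 (adjusted *P* = 0.00145) without it. Mock library 3 was likewise the highest of the *gai* mock libraries for *CYP83A1* and *BCAT4*, and in the other genotypes *CYP83A1* was highest in mock library 3 as well, and in salt library 3 of *ga4* and *della5x* but not of L*er*.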
